A study of Homo sapiens with 7 samples.

Results

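The genes described here are POLR2A, POLR2B, POLR2C, POLR2D, POLR2E, POLR2F, POLR2G, POLR2H, POLR2I and POLR2K, which code for subunits of RNA polymerase II. They were taken by symbol from the deposited expression table and make up 10 of its 23710 genes. The group was selected on its measured values, the differences between the peptide libraries, so those differences are a description and are not tested. SNU398 is an established hepatocellular carcinoma cell line that expresses the transcription factor SALL4. The cells received 1 of 4 peptides, each at 30 µM for 8 hours, and 1 RNA library was sequenced for each peptide. PEN is the cell-penetrating carrier penetratin alone. As background on the study, PEN-WT joins it to a stretch of SALL4 that binds the chromatin protein RBBP4, PEN-MUT to a mutated form of that stretch, and PEN-FFW to an engineered variant. All 4 groups therefore share the carrier, and there is no untreated RNA library among those used. The other 3 samples of the series are chromatin immunoprecipitation libraries, not analysed here.

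RNA polymerase II transcribes the protein-coding genes of the nucleus. Its largest subunits, made from POLR2A and POLR2B, form the active site, and POLR2A also carries the C-terminal domain (CTD), a tail of repeated heptapeptides whose phosphorylation marks the steps of transcription. Some of the smaller subunits belong to polymerase II alone, while others are shared with polymerases I and III, which make ribosomal and transfer RNA.

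The start regions of POLR2A, POLR2D and POLR2H are shown because POLR2A had the highest difference of the 10 genes between PEN-FFW and PEN, and POLR2D and POLR2H had the lowest. Each window runs from 250 bases before to 50 bases after a start site in RefSeq, on GRCh38.p14, and is written 5′ to 3′ along the gene. The POLR2A window is chr17:7484116-7484415 on the plus strand and the POLR2D window is chr2:127858106-127858405 on the minus strand. POLR2H has 2 windows, chr3:184361460-184361759 and chr3:184363111-184363410, both on the plus strand. Capitals mark matches, on either strand, to the motifs described after the sequences.
POLR2A: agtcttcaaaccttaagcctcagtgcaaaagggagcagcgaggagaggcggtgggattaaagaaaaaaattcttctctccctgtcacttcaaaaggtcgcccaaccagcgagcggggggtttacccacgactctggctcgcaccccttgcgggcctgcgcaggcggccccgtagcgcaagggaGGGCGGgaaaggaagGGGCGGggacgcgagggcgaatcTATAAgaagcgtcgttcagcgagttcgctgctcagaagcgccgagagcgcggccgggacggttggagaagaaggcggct
POLR2D: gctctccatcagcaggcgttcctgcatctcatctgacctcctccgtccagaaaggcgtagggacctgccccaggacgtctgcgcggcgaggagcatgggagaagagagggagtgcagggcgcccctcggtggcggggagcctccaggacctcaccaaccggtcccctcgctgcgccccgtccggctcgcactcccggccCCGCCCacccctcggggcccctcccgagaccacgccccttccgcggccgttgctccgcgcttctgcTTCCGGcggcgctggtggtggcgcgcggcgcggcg
POLR2H, upstream start: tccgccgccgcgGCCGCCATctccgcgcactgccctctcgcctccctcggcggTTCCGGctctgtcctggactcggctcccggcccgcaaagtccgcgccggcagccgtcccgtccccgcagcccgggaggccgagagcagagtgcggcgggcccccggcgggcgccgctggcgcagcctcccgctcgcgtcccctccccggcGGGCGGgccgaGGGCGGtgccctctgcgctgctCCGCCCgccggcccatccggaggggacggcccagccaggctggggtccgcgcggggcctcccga
POLR2H, downstream start: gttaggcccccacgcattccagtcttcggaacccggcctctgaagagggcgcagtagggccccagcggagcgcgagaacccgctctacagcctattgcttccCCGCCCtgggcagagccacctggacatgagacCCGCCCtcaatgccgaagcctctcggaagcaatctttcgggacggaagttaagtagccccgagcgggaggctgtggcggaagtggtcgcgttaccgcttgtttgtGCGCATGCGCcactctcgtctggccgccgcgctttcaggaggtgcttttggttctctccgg

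Windows were found for 7 of the 10 genes, all except POLR2G, POLR2I and POLR2K. The 7 genes have 9 windows, with a further window each for POLR2F and POLR2H. A gene is counted if any of its windows held the motif. Shares of all windows count single windows, so the 7 genes and these shares are in unlike units. POLR2A was the only gene of the 7 whose window held the TATA box letters TATAA, which occur in 20.4% of all 35116 windows in the table. It also held the GC box GGGCGG, found for 5 of the 7 genes, POLR2A included, and in 45.0% of all windows. The core of ETS factor sites, CCGGAA, was in the windows of POLR2C, POLR2D, POLR2F and POLR2H but not POLR2A, and in 17.2% of all windows. The palindromic NRF1 site was found for POLR2F and POLR2H, and in 1.24% of all windows. The YY1 core ATGGCGGC was found for POLR2H alone, and in 1052 windows of the table. No window of the 7 genes held the CCAAT box (34.6% of all windows) or the MYC E-box CACGTG (7.26%). None of these motifs contains another. A match of letters is a description, and binding to these windows was not measured in the RNA libraries.

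The deposited values were turned back from log2 into normalized counts, and differences between libraries were taken on the scale log2(normalized count + 10). Genes were compared where their normalized counts averaged 50 or more across the RNA libraries. These 12578 genes are called tested genes, and all 10 subunit genes are among them. The median tested gene under PEN-FFW stood -0.27 from PEN as deposited, so each difference is stated with the median tested gene of that pair of libraries set to 0. The ± after a difference is a standard error from counting reads only. With 1 library per peptide there is no replicate and no p-value, and the spread between repeat cultures is unknown.

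Reads in genes above the lowest deposited value came to 27347377 under PEN-FFW, 40717633 under PEN-WT, 32043544 under PEN-MUT and 37784093 under PEN. Of 9 markers listed for the labelled line, GPC3, SALL4, ALB and AFP were above that floor in every library, while KRT8, KRT18, HNF4A, APOB and TTR were at it in every library. The summed normalized count of the 9, as deposited, ran from 2258 under PEN-FFW to 3046 under PEN. On that scale the median tested gene under PEN-FFW itself stood -0.27 from PEN. On the same scale, the sum for 8 markers of other cell types ran from 74311 under PEN-FFW to 81580 under PEN-MUT. It was nearly all COL3A1. PTPRC, CD68, COL1A1 and ACTA2 were also above the floor in every library, while CD3E, PECAM1 and DES were at it. The part of these levels in the results was not tested. In bulk RNA, fewer cells of a kind and less RNA per cell cannot be told apart.

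POLR2A, the catalytic subunit with the CTD, was high under PEN-FFW, while the other 9 subunit genes were below the median gene there. Normalized counts of POLR2A were 4950.1 under PEN-FFW, 2621 under PEN-WT, 2089 under PEN-MUT and 2082 under PEN. The control libraries PEN and PEN-MUT were alike, PEN-WT stood above both, and PEN-FFW stood far above the other 3. As deposited the PEN-FFW level was 2.38 times that of PEN, and with the median gene at 0 it was 2.86 times, a log2 difference of 1.52 ± 0.03. PEN-WT stood 0.30 ± 0.04 from PEN, and PEN-MUT stood -0.02 ± 0.04 from it. On GRCh37, the assembly known as hg19, POLR2A lies at chromosome 17, 7387685 to 7417933, plus strand, and the annotation places no other gene over it. Counted from the highest difference between PEN-FFW and PEN, POLR2A was at place 50 of 12578 tested genes. It was at place 6 of the 2620 genes whose mean normalized count over the 4 libraries was at least its own. That mean, 2935 for POLR2A, includes its high PEN-FFW value, so these are not genes of like abundance under PEN.

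POLR2B codes for the partner of POLR2A at the active site (chromosome 4, 57843888 to 57897324, plus strand). Its normalized counts were 5435 under PEN-FFW, 7079 under PEN-WT, 7671 under PEN-MUT and 7679 under PEN. It was lowest under PEN-FFW, at -0.23 ± 0.02 from PEN, with PEN-WT between at -0.15 ± 0.02. The ratio of the POLR2A to the POLR2B normalized count was 0.911 under PEN-FFW, 0.370 under PEN-WT, 0.272 under PEN-MUT and 0.271 under PEN. Such a ratio within a library does not depend on how the library was scaled.

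**Figure D1:**
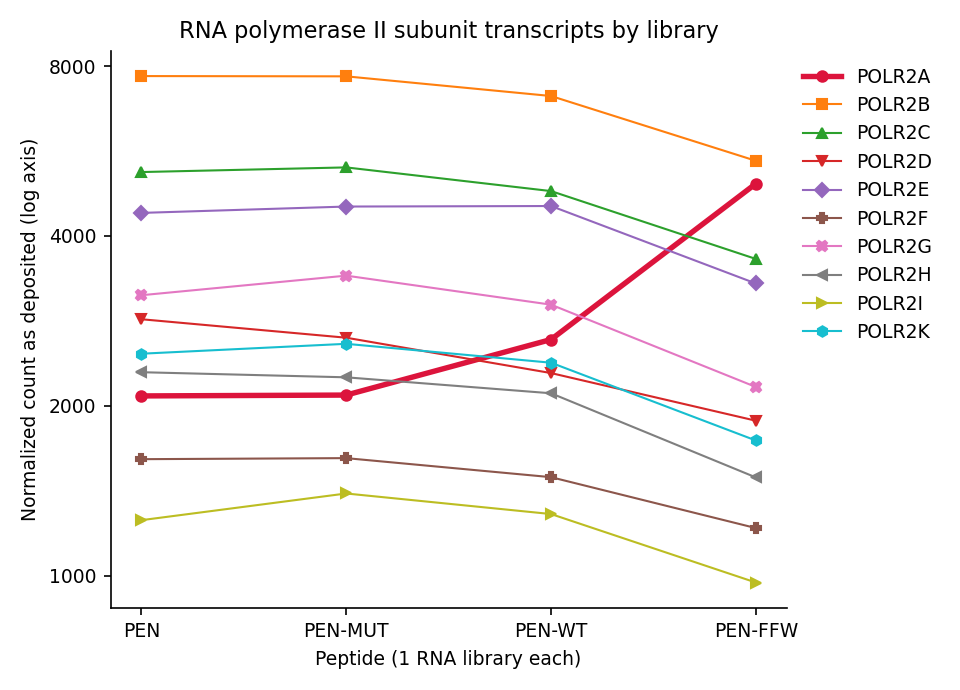
Normalized counts as deposited (log axis) of the 10 RNA polymerase II subunit genes in the 4 RNA libraries, 1 per peptide. POLR2A stands at 4950.1 under PEN-FFW against 2082 under PEN, while POLR2B stands at 5435 against 7679 on a scale where the median tested gene is itself lower under PEN-FFW.

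POLR2C and POLR2I belong to polymerase II alone. POLR2C is a scaffold on which the core is assembled (chromosome 16, 57496572 to 57505921, plus strand), and its normalized counts were 3641 under PEN-FFW, 4803 under PEN-WT, 5290 under PEN-MUT and 5190.4 under PEN. PEN and PEN-MUT were close and PEN-FFW was lowest, at -0.24 ± 0.03 from PEN. POLR2I is a small zinc-binding subunit that takes part in transcript cleavage (chromosome 19, 36604611 to 36606115, minus strand), with normalized counts of 972 under PEN-FFW, 1285 under PEN-WT, 1398 under PEN-MUT and 1254 under PEN. Its 95% counting interval between PEN-FFW and PEN, -0.21 to 0.02, held the median gene, so no difference from that gene was detectable at this depth. It was highest under PEN-MUT, at 0.13 ± 0.05 from PEN. TBCB lies on the opposite strand over 925 bases of POLR2I and had more normalized counts (2423 under PEN-FFW and 2929 under PEN). Whether reads were assigned by strand is not stated, so the 2 genes cannot be told apart in that stretch. The same holds for opposite-strand genes over POLR2B (IGFBP7, 386 bases) and POLR2C (DOK4, 88 bases). Over POLR2F it holds for C22orf23 (1063 bases) and SOX10 (16737 bases). Each of these had fewer normalized counts than its subunit gene in every library.

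POLR2D and POLR2G make the stalk, a heterodimer that stands out from the core near the RNA exit channel. Normalized counts of POLR2D (chromosome 2, 128601127 to 128615729, minus strand) were 1881 under PEN-FFW, 2285 under PEN-WT, 2640 under PEN-MUT and 2847 under PEN. It was below PEN in each of the other 3 libraries, at -0.13 ± 0.04 under PEN-MUT, -0.35 ± 0.04 under PEN-WT and -0.32 ± 0.04 under PEN-FFW. Normalized counts of POLR2G (chromosome 11, 62529037 to 62534182, plus strand) were 2159 under PEN-FFW, 3021 under PEN-WT, 3401 under PEN-MUT and 3139.8 under PEN. It was highest under PEN-MUT, at 0.09 ± 0.03 from PEN, and lowest under PEN-FFW, at -0.27 ± 0.04, with PEN-WT at -0.09 ± 0.03. The stalk partners thus lay on opposite sides of PEN in the PEN-MUT library, each with a counting interval that left out the median gene. Such intervals lay wholly above it for 17.7% of tested genes and wholly below it for 19.1%. Against genes of like transcript length POLR2G stood at 0.04 ± 0.03, within its 95% counting error of 0, and POLR2D at -0.11 ± 0.04.

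POLR2E, POLR2F, POLR2H and POLR2K are shared with polymerases I and III. Normalized counts of POLR2H (chromosome 3, 184079498 to 184086384, plus strand) were 1493 under PEN-FFW, 2104 under PEN-WT, 2246 under PEN-MUT and 2293 under PEN, and its difference between PEN-FFW and PEN, -0.35 ± 0.05, was the lowest of the 10. POLR2K, a small zinc-binding subunit (chromosome 8, 101162851 to 101166231, plus strand), had 1736 under PEN-FFW, 2384 under PEN-WT, 2575 under PEN-MUT and 2473 under PEN as normalized counts, a difference of -0.24 ± 0.04 between PEN-FFW and PEN. POLR2E (chromosome 19, 1086573 to 1095379, minus strand) had 3294 under PEN-FFW, 4519 under PEN-WT, 4509 under PEN-MUT and 4394 under PEN. Its PEN, PEN-MUT and PEN-WT values lay close together and PEN-FFW stood at -0.14 ± 0.03 from PEN. POLR2F (chromosome 22, 38348614 to 38437922, plus strand) had 1214 under PEN-FFW, 1494 under PEN-WT, 1615 under PEN-MUT and 1608 under PEN, and its differences from PEN were -0.14 ± 0.05 under PEN-WT and -0.13 ± 0.05 under PEN-FFW, alike within counting error. The 4 shared subunits ran from -0.35 to -0.13 between PEN-FFW and PEN, which overlaps the range of the polymerase II subunits other than POLR2A (-0.32 to -0.09).

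Between PEN-FFW and PEN, 1 of the 10 genes, POLR2A, was at least 1.5-fold higher, where 7.24% of tested genes were, and 0 were at least 1.5-fold lower, where 0.437% were. At 1.2-fold in either direction it was 4 of the 10, POLR2D, POLR2G and POLR2H being the lower ones, beside 30.7% of tested genes. All 9 other subunit genes were below the median gene, which by construction has as many tested genes below as above it, though POLR2I stood at 0.02 when set against genes of like transcript length. With the median gene at 0, POLR2D and POLR2F were lowest under PEN-WT, by less than counting error, and the other 7 under PEN-FFW. For 8 of the 9 the 95% counting interval lay wholly below the median gene (31.2% of tested genes), and that of POLR2A lay wholly above it (29.6%). The 10 genes had a median of -0.23, where all tested genes have 0. Since the group was selected on these values, nothing is read from the shares.

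Between PEN-WT and PEN, 0 of the 10 were 1.5-fold apart, where 0.827% of tested genes were higher and 0.374% lower by that much. At 1.2-fold it was 2, POLR2A above and POLR2D below, beside 15.2% of tested genes. Intervals of 7 genes lay wholly below the median gene (25.1% of tested genes) and that of POLR2A above it (22.9%). Of the 7, POLR2K stood at 0.01 when set against genes of like GC content and transcript length. Between PEN-MUT and PEN, 0 were 1.5-fold apart (0.215% of tested genes higher and 0.350% lower), and 7 intervals held the median gene. POLR2D lay below it (19.1% of tested genes), and POLR2G and POLR2I above it (17.7%). The medians of the 10 genes were -0.11 for PEN-WT and -0.0045 for PEN-MUT. These comparisons share the PEN library.

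**Figure D2:**
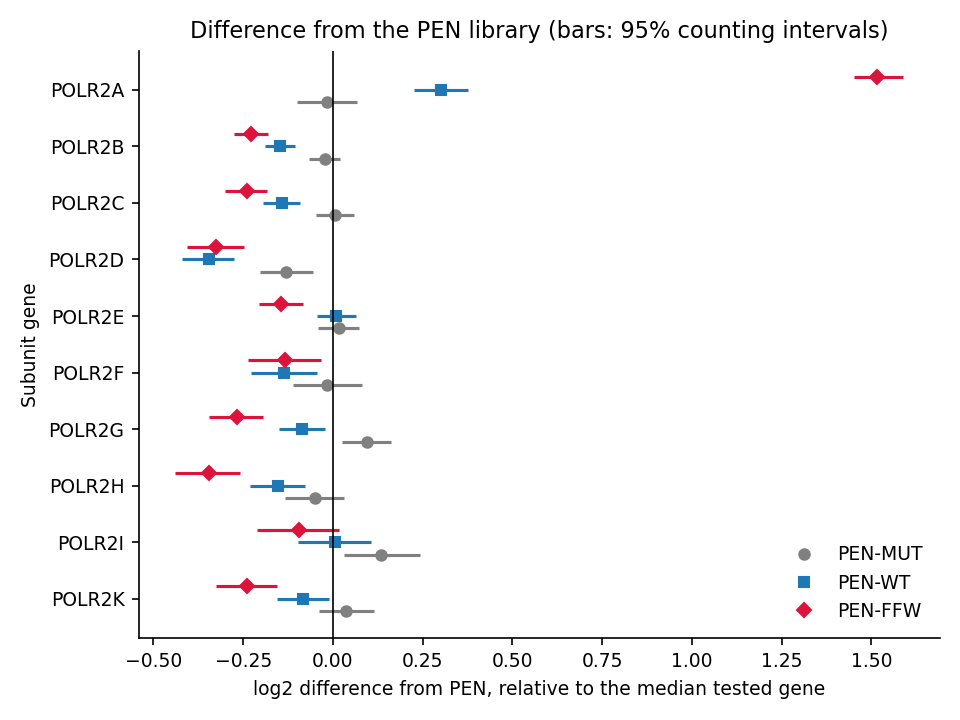
Log2 difference of each subunit gene from PEN, with the median tested gene at 0, with diamonds for PEN-FFW, squares for PEN-WT, circles for PEN-MUT and bars for 95% counting intervals of 1 library per peptide. POLR2A stands at 1.52 under PEN-FFW and 0.30 under PEN-WT, and the other 9 genes lie between -0.35 and -0.09 under PEN-FFW.

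POLR2B, POLR2C, POLR2G, POLR2H and POLR2K, 5 of the 10, stood lowest under PEN-FFW, next under PEN-WT and above that under both controls, once the median gene is set to 0. That order was found for 21.9% of tested genes. POLR2A alone had the reverse order, found for 19.9% of tested genes. POLR2D, POLR2E, POLR2F and POLR2I had neither.

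POLR2A supplied 18.5% of the reads of the 10 genes under PEN-FFW (5362 of 29003), with an exact (Clopper-Pearson) 95% interval of 18.04% to 18.9%. Its share was 8.29% under PEN-WT (8.03% to 8.57%), 6.25% under PEN-MUT (5.99% to 6.51%) and 6.32% under PEN (6.08% to 6.56%). The intervals of PEN and PEN-MUT overlap, and those of PEN-WT and PEN-FFW lie apart from them and from each other. They cover counting error only, since sequenced fragments are not independent molecules. Set against the mean of the other 9 genes on the log2 scale, POLR2A differed between PEN-FFW and PEN by 1.74 ± 0.04, a 3.34-fold difference in proportion. The same measure was 0.42 ± 0.04 for PEN-WT and -0.02 ± 0.04 for PEN-MUT. The differences of the other 9 genes between PEN-FFW and PEN had an SD of 0.09 among themselves, a spread over genes and not over samples.

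**Figure D3:**
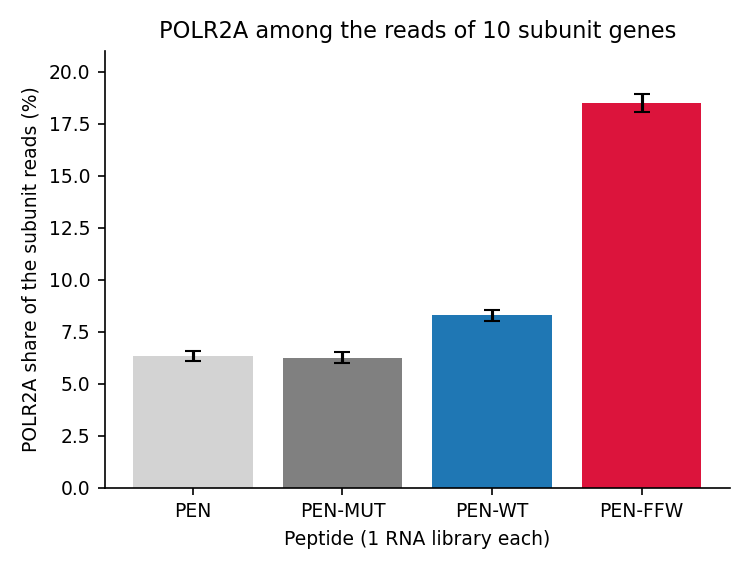
Share (%) of the reads of the 10 subunit genes that came from POLR2A in each RNA library, with bars from 0 and exact 95% binomial intervals for counting error. PEN-FFW stands at 18.5% and PEN-WT at 8.29%, above PEN-MUT at 6.25% and PEN at 6.32%.

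Levels of different genes were compared per length, as reads per kilobase of the canonical transcript scaled to the library's reads in genes (RPKM). By RPKM POLR2A was the lowest of the 10 under PEN (10.4), PEN-MUT (10.3) and PEN-WT (13.2). From the top, RPKM under PEN was 125 for POLR2G, 92.7 for POLR2C, 89.2 for POLR2I, 82.3 for POLR2K, 63.9 for POLR2B, 48.5 for POLR2E, 40 for POLR2H, 24.5 for POLR2F and 17.8 for POLR2D. Under PEN-FFW the RPKM of POLR2A was 31.1, place 8 of 10, above POLR2F (23.2) and POLR2D (14.8). POLR2H, the next above it at 32.7, was not apart from it by counting error, the 95% intervals being 30.3 to 31.9 for POLR2A and 31.1 to 34.4 for POLR2H. With the length of all annotated exons, POLR2A was at place 7 under PEN-FFW and at place 9 in each of the other 3 libraries.

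All 4 peptides were given at 1 dose and 1 time, so the 6 pairs, 60 differences for the 10 genes, can be set side by side. PEN-FFW and PEN-WT, the engineered and the SALL4-derived peptide, differed in POLR2A by 1.22 (95% counting interval 1.16 to 1.28). It was the only gene of the 10 past 1.5-fold in that pair, where 4.17% of tested genes were higher and 0.0318% lower by that much. The other 9 lay between -0.19 for POLR2H and 0.02 for POLR2D, 6 of them with intervals wholly below the median gene (23.9% of tested genes). Intervals that held the median gene, so that this depth shows no difference from it, were those of POLR2D (-0.06 to 0.10), POLR2F (-0.10 to 0.10) and POLR2I (-0.21 to 0.01).

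PEN-FFW and PEN-MUT, the mutated control, differed in POLR2A by 1.54 (1.47 to 1.62), again the only gene past 1.5-fold (7.24% of tested genes higher and 0.0875% lower). The intervals of all 9 others lay wholly below the median gene (29.1% of tested genes), from -0.35 for POLR2G to -0.11 for POLR2F. PEN-WT and PEN-MUT differed in POLR2A by 0.33 (0.25 to 0.41), an interval above the median gene (19.4% of tested genes). No gene of the 10 was past 1.5-fold there (0.898% of tested genes higher and 0.0159% lower), and 8 intervals lay wholly below the median gene (19.2%), the lowest POLR2D at -0.21 (-0.28 to -0.13). POLR2E, at 0.0026 (-0.05 to 0.06), was the exception. PEN-MUT and PEN differed in POLR2A by -0.02, with an interval of -0.10 to 0.07.

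**Figure D4:**
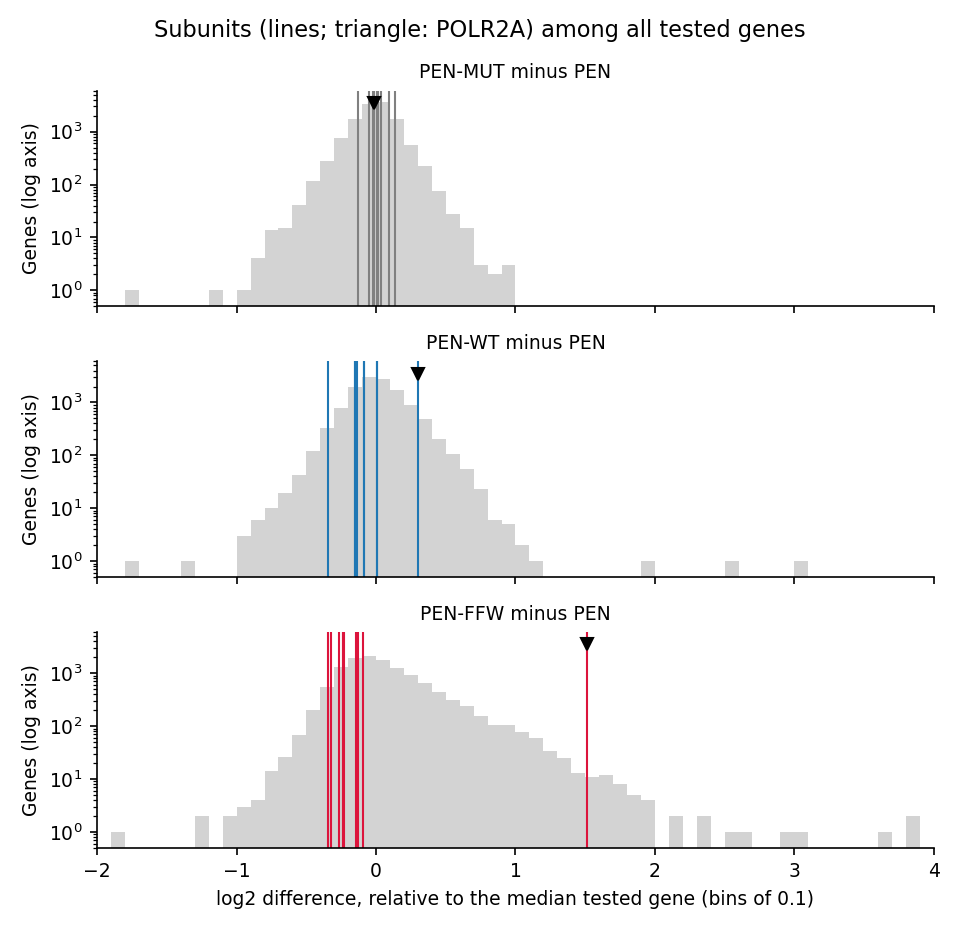
Number of tested genes (log axis) by log2 difference from PEN, with the median tested gene at 0, in 1 panel for each peptide other than PEN, with the 10 subunit genes as vertical lines and a triangle on POLR2A. Under PEN-FFW 9 lines crowd between -0.35 and -0.09, and POLR2A stands apart at 1.52 in the thin upper tail.

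The canonical transcript of POLR2A has 6304 bases, the longest of the 10, and 56.3% GC, where the medians of tested genes with a value are 3407 bases and 48.3%. POLR2D, the next longest at 5038 bases but with 45.5% GC, stood at -0.32 between PEN-FFW and PEN. POLR2B, at 3785 bases and 41.0% GC, stood at -0.23. POLR2E, POLR2F, POLR2H and POLR2I have a higher GC content than POLR2A (57.0% to 60.3%) but shorter transcripts (443 to 2854 bases). These genes stood between -0.35 and -0.09. Tested genes in the GC bin of POLR2A, 1 of 20, had a median of 0.06, and those in its transcript length bin a median of 0.0081. In a grid of GC content by length, chosen after the values were seen, the genes of its cell had a median of 0.26, and POLR2A stood 1.26 above them. The part of length and GC content in the POLR2A difference was not tested.

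Among 8751 other genes averaging at least 500 normalized counts, those with differences from PEN most like POLR2A were MYO15B, MLL2, SRCAP, SRRM2 and LAMA5. Their root mean square distance from POLR2A over the 3 differences was 0.11 to 0.16, and 4 libraries are few points for such a likeness. MYO15B is a myosin gene, MLL2 codes for a histone methyltransferase, SRCAP for a chromatin remodeller, SRRM2 for a splicing-related protein of nuclear speckles and LAMA5 for a laminin chain. Normalized counts of SRRM2 were 14525 under PEN-FFW, 7508 under PEN-WT, 4822 under PEN-MUT and 5600.2 under PEN. As for POLR2A, PEN-FFW was highest and PEN-WT next, though PEN-MUT was below PEN, and the difference between PEN-FFW and PEN was 1.64. The 4 of these genes with an annotated transcript have 9044 to 11724 bases, all longer than POLR2A, and 55.97% to 66.4% GC. Nearest to the centre of the other 9 subunit genes were FKBP4, G3BP2, MRPS12, GPN1 and MEA1, at distances of 0.0074 to 0.011. GPN1 is a GTPase known for its part in carrying polymerase II into the nucleus.

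The remaining genes with a POLR2 symbol are not in the group. POLR2L, a core subunit shared by the polymerases, had normalized counts of 2571 under PEN-FFW, 3412 under PEN-WT, 3575 under PEN-MUT and 3236 under PEN, a difference of -0.06 ± 0.04 between PEN-FFW and PEN. POLR2J, the assembly partner of POLR2C, had 702 under PEN-FFW, 945 under PEN-WT, 960 under PEN-MUT and 882 under PEN (-0.06 ± 0.07). Both counting intervals held the median gene. The level of POLR2J is uncertain because it has near-identical copies, POLR2J3, POLR2J4 and POLR2J2, the last at the floor in every library. POLR2J3 had 155 under PEN-FFW, 147 under PEN-WT, 130 under PEN-MUT and 122 under PEN, a difference of 0.60 ± 0.15 (0.29 to 0.95) that is past 1.5-fold and in the direction of POLR2A, at a low count. POLR2J4 had 119 under PEN-FFW, 126 under PEN-WT, 101 under PEN-MUT and 134 under PEN (0.11 ± 0.16). POLR2M, which is not a core subunit, had 649.9 under PEN-FFW, 878 under PEN-WT, 849 under PEN-MUT and 835 under PEN (-0.09 ± 0.07).

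In the 7 other lists of transcription machinery genes, 1 of 145 tested genes was at least 1.5-fold higher between PEN-FFW and PEN and 0 were lower, beside 7.24% and 0.437% of tested genes. It was CCNK, the cyclin of CDK12 and CDK13, from the list of kinases that phosphorylate the CTD and their regulators. Normalized counts of CCNK were 887 under PEN-FFW, 779 under PEN-WT, 610 under PEN-MUT and 668 under PEN, a difference of 0.68 ± 0.07. It was lowest under PEN-MUT and highest under PEN-FFW. CCNH, the cyclin of CDK7, stood at -0.34 ± 0.08 and CDK7 itself at -0.30 ± 0.08. The median of the list was -0.08, with 7 of 12 genes below the median gene.

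Subunit genes of polymerases I and III had a median of -0.23 between PEN-FFW and PEN, with 18 of 19 below the median gene, and medians of -0.17 for PEN-WT and -0.12 for PEN-MUT. Farthest from the median gene were CD3EAP at -0.47 ± 0.09, POLR1B at -0.45 ± 0.04 and POLR1C, shared by both enzymes, at -0.40 ± 0.05. POLR1A and POLR3A, the largest subunits of polymerases I and III and named after their values were seen, stood at -0.07 ± 0.02 and -0.06 ± 0.03 under PEN-FFW. Under PEN-WT they stood at -0.17 ± 0.02 and -0.10 ± 0.03. Neither was above the median gene in these 2 comparisons with PEN, but both were slightly above it between PEN-FFW and PEN-MUT. Genes for the assembly and nuclear import of polymerase II had a median of -0.24, with 14 of 16 below the median gene. Farthest were the prefoldin gene PFDN2 at -0.49 ± 0.05, the ATPase gene RUVBL1 at -0.37 ± 0.03 and the chaperone gene HSP90AA1 at -0.33 ± 0.0062.

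General transcription factors, which place the polymerase at promoters, had a median of -0.15, with 23 of 28 below the median gene. Their farthest genes code for TFIID subunits, TAF13 at -0.46 ± 0.08 and TAF12 at -0.38 ± 0.07 below and TAF4 at 0.39 ± 0.06 above. Mediator, the complex that links activators to the polymerase, had a median of -0.10, with 22 of 32 below, but its farthest genes all lay above: MED15 at 0.45 ± 0.05, MED25 at 0.41 ± 0.06 and MED12 at 0.38 ± 0.05. Elongation factors had a median of -0.10, with 14 of 23 below. Among them TCEA2, a transcript cleavage factor gene, stood at 0.50 ± 0.09, SUPT16H, a histone chaperone gene, at -0.36 ± 0.01 and SUPT4H1 at -0.30 ± 0.05. CTD phosphatases and readers had a median of 0.05, with 5 of 15 below. Farthest in that list were PCIF1, a cap methyltransferase gene, at 0.40 ± 0.05, RECQL5, a helicase gene, at 0.39 ± 0.04 and RPRD2 at 0.38 ± 0.05. No tested gene of the 7 lists was as high as POLR2A between PEN-FFW and PEN.

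**Figure D5:**
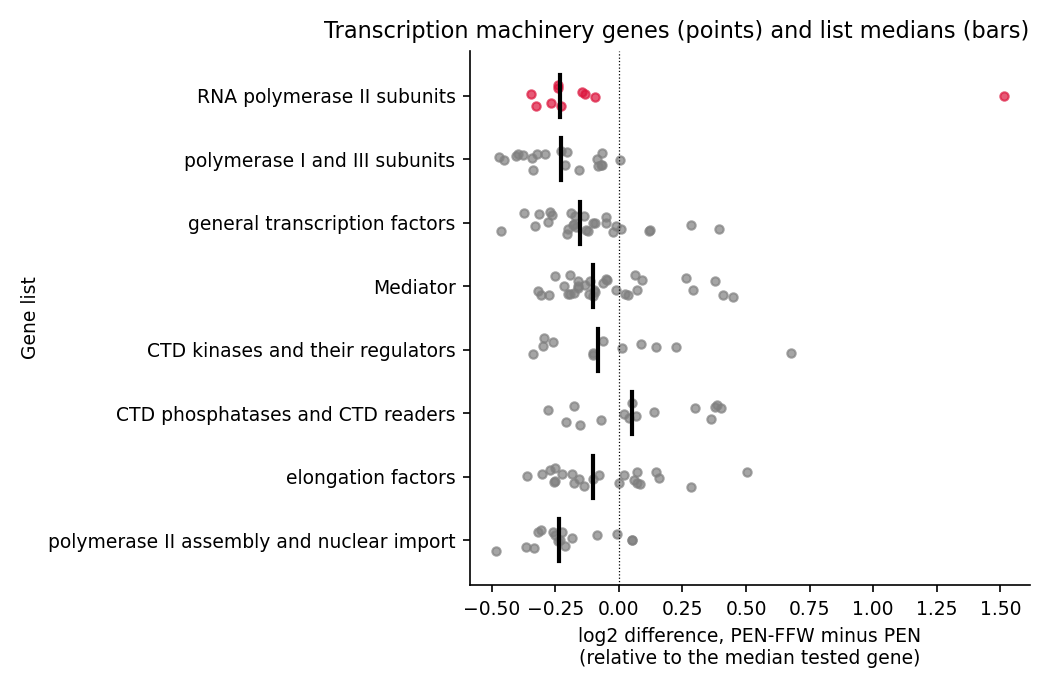
Log2 difference between PEN-FFW and PEN, with the median tested gene at 0, for the subunit genes and 7 other lists of transcription machinery genes (points, spread vertically at random), and each list's median as a bar. POLR2A is the point at 1.52, CCNK the next highest at 0.68, and the medians of the polymerase II and the polymerase I and III subunits are both -0.23.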

How the data were processed

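RNA was sequenced from 1 library per peptide. The submitters' processing notes name STAR 2.4.0i, featureCounts 1.5.0-p1 and hg19. Annotation, strand setting and scaling method: not given in the sources used here. The deposited values are on a log2 scale with a floor of 5 normalized counts. Undoing the log gave whole multiples of 1 step per library for 100% of genes above the floor (tolerance 0.1 read), and dividing by that step gave reads. Columns were matched to samples through the sample names in the labels.

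Differences, counting errors and intervals were computed in Python 3.11.15 with scipy 1.17.1. The recovery of reads and the differences were tested on simulated data, and the counting errors and intervals were not. The simulation had counting error alone, with as many genes raised as lowered. Between PEN-FFW and PEN, 7.24% of tested genes were at least 1.5-fold higher and 0.437% lower. Setting the median gene to 0 was not tested under such an imbalance. Intervals of a difference come from the exact binomial interval of the reads, without a pseudocount. Named genes are the 10 members, the other POLR2 rows, the 5 genes most like POLR2A or the other members, and the 3 of each other list farthest from the median gene between PEN-FFW and PEN. The members and lists were chosen with earlier results of these data known. Positions, transcript lengths and GC content came from GENCODE 44 on GRCh37: 20574 symbols matched directly, 1572 through older symbols, and 1564 found no match. Of the lists, 23 of 27 elongation factor and 16 of 17 assembly symbols were in the table. A listed gene is not reported here and was left out of its list's values. Alternatives covered scaling, pseudocount, filter and fold threshold.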

Additional observations from a re-analysis of the deposited data

How the results depend on the processing

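POLR2A stood 1.74 above the other 9 genes between PEN-FFW and PEN. Against genes of like GC content and transcript length, a setting chosen after seeing the data, it was 1.46, and under the other settings it was 1.68 to 1.75, within its 95% counting error. The median of the 10 genes, -0.23, became -0.50 as deposited, -0.14 against genes of like mean count, -0.15 against genes of like transcript length and -0.14 against genes of like GC content and length. The number of genes at least 1.5-fold apart went from 1 to 3 as deposited, where the median gene itself stands at -0.27, and to 4 at a threshold of 1.2-fold. For PEN-WT it went from 0 to 2 at 1.2-fold. Of 300 single-gene values under the alternatives, 262 stayed within their 95% counting error and 38 did not. The sign changed for 15 of the 300, none of them 1.5-fold apart. In 14 of these the counting interval held the median gene, among them POLR2I between PEN-FFW and PEN (-0.09, and 0.02 against genes of like transcript length). The other was POLR2K between PEN-WT and PEN (-0.08, and 0.01 against genes of like GC content and length). The cause of these shifts was not tested. No paired analysis was possible because each peptide has 1 library, and no replicate could be left out. At this depth the genes with fewer reads have wider counting intervals, and cannot show differences smaller than those.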
